A study of Mus musculus with 4 samples.

Results

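Lymphocytes enter, cross and leave the spleen with the help of receptors that read lipid gradients and of integrins that hold them to other cells. The 9 genes described here encode such molecules: the sphingosine 1-phosphate receptors S1pr1, S1pr2 and S1pr4, the oxysterol receptor Gpr183, the lysophosphatidylserine receptors P2ry10 and Gpr174, and the integrin chains Itga4, Itgb7 and Itgal. They were taken by name from the 41342 named genes of the count table, as a list drawn up with earlier results of these data known. All 9 averaged 10 or more counts across the libraries and so are among the 13863 genes tested.

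RNA was measured in B cells of the spleen, prepared by removing the splenocytes that carry CD43. The 4 libraries came from ΔleftPAL mice, in which the palindrome's left part with the enhancers hs3a and hs1,2 is deleted from the 3' regulatory region (3'RR) of the heavy chain locus, and from ΔIRIS mice, which lack the inverted repeats between those enhancers and carry hs3a in the opposite orientation with every enhancer kept. Both are germline lines on the 129 background, so all libraries analysed here carry a 3'RR mutation, and wt libraries were not analysed here. Each genotype gave 1 library of resting cells and 1 of LPS-activated cells, taken after 48 h in culture with LPS (bacterial lipopolysaccharide, a B cell activator) at 5 μg per ml. Resting cells were taken before culture, so the effect of LPS and that of the culture cannot be told apart, and a change on LPS means here the change from resting to LPS-activated cells. According to the labels, which state no age, each library stands for cells pooled from 4 animals. With 1 library per group, the comparisons of genotypes have no replicate check and no test.

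Sphingosine 1-phosphate (S1P) is scarce inside lymphoid tissue and abundant in blood and lymph. S1PR1 draws lymphocytes towards it, whereas S1PR2 holds germinal centre B cells in the follicle centre. GPR183, also called EBI2, guides activated B cells to the outer follicle along oxysterols, and P2RY10 and GPR174 respond to lysophosphatidylserine. Integrin α4 pairs with β1 to bind VCAM-1 or with β7 to bind MAdCAM-1, and integrin αL pairs with β2 to form LFA-1, the receptor of ICAM-1 and ICAM-2. The transcription factors KLF2 and FOXO1 are known to control several of these genes in lymphocytes, and CD69 removes S1PR1 from the cell surface.

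The promoters of 3 members that were lower after LPS are shown, from a search of all members' entries for letters of the factors named above. Itga4 and Itgb7 held the most CACCC matches of these entries and Gpr183 held 0, as given below. P2ry10 and S1pr4, which were also lower after LPS, are not shown. RefSeq promoter entries on GRCm38.p6, the assembly also called mm10, run from 250 bases before to 50 bases after the start of transcription. Entries existed for 7 of the 9 members, S1pr1 and Itgal being the others. Capitals mark CACCC, the letters KLF factors bind, or its reverse complement GGGTG, searched on both strands. The Itga4 entry is chr2:79255176-79255475 on the plus strand, the Itgb7 entry chr15:102231886-102232185 on the minus strand and the Gpr183 entry chr14:121965144-121965443 on the minus strand.
Itga4: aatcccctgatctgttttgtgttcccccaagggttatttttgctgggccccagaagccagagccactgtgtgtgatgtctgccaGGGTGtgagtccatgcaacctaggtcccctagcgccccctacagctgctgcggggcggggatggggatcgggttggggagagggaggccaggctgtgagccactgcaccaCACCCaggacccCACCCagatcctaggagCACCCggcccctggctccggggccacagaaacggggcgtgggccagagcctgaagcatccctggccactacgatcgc
Itgb7: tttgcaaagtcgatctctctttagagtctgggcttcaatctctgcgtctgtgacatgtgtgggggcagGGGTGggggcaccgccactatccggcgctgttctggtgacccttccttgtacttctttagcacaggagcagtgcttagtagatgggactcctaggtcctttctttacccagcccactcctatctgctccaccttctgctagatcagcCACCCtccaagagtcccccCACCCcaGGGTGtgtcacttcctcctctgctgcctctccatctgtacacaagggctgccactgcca
Gpr183: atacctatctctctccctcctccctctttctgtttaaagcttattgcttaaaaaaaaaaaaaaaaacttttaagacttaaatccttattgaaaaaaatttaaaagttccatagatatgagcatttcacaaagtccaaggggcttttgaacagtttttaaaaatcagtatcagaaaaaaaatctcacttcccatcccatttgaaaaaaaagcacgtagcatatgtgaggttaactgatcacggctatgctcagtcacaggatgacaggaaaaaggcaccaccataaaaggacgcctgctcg

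Itga4 and Itgb7 each held 4 matches, which began at -166, -56, -44 and -27 in Itga4 and at -182, -35, -16 and -9 in Itgb7, counted from the start of transcription. Gpr183 and both entries of P2ry10 held 0, and S1pr2, S1pr4 and Gpr174 held 1 each. Thus 5 of the 8 entries of the members had a match, against 57.5% of the 32851 mouse promoters of this length. The FOXO letters GTAAACA, or TGTTTAC on the other strand, were in 0 of the 8 entries and in 3.65% of all promoters. The share with CACCC among these genes was therefore close to that of any promoter, and letters alone do not show a site.

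The libraries held between 23615496 and 29776108 fragments in named genes, at which 3 counts amount to between 0.0989 and 0.126 CPM (a gene's counts scaled to a common library size with edgeR's TMM factors). Values are shares of each library's RNA, so fewer cells of a type and less RNA per cell cannot be told apart. Among fixed marker lists, the summed level of 8 B cell genes was 8182 to 9201 CPM at rest and 3980 to 4237 CPM after LPS. After LPS 7 of the 8 were lower in both genotypes. Blnk was higher, going from 216 and 210 CPM to 254 and 223 CPM in ΔleftPAL and ΔIRIS cells. Cd74 was the largest part of the sum, at 5034 and 4618 CPM at rest and 1716 and 1377 CPM after LPS. The summed level of 7 erythroid and platelet genes was 24458 to 35039 CPM at rest and 51.3 to 104 CPM after LPS, and all 7 were lower after LPS in both genotypes. For 9 T cell genes the sum was 30.2 to 31.5 CPM at rest and 3.43 to 4.02 CPM after LPS, with Cd3d, Cd3e and Cd3g at 0 after LPS in both genotypes. Of the 9 genes, 8 were lower after LPS in both genotypes. The other, Cd28, went from 51 to 48 counts in ΔleftPAL and from 39 to 65 in ΔIRIS cells. For 8 myeloid genes it was 370 to 487 CPM at rest and 4.52 to 8.95 CPM after LPS, all 8 being lower in both genotypes, with S100a8, S100a9 and Mpo at 0 after LPS. For 7 NK cell genes it was 10.6 to 15.7 CPM at rest and 0.626 to 1.10 CPM after LPS. The part of these other cells in the changes described next was not tested.

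On LPS the homing receptors fell as a majority but not as a block. By edgeR's quasi-likelihood test over both genotypes, with Benjamini-Hochberg adjustment over all tested genes, 6 of the 9 were lower after LPS, 1 was higher and 2 did not pass. With TPM in place of counts 5 were called lower by limma and 0 higher, as S1pr4 and Itgal missed the threshold. Among all tested genes, 59.7% were called, 30.2% as lower and 29.5% as higher. The median log2 fold change was -1.80 over the 9 genes and -0.04 over all genes tested. The S1P receptor S1pr1 fell most, 13.2-fold, followed by Itgb7, P2ry10, Gpr183, Itga4 and S1pr4, whereas Itgal rose and Gpr174 and S1pr2 did not pass the test. The fall was at least 2-fold in both genotypes for 5 genes, namely S1pr1, Gpr183, P2ry10, Itga4 and Itgb7, as it was for 2109 of the 13863 genes. Falls of that size were seen in 18.3% of genes in ΔleftPAL and 20.7% in ΔIRIS cells. The error of this test draws on the genotypes' disagreement about the LPS effect, with 1 residual degree of freedom per gene. It also draws on a trend over all tested genes, weighted by a median of 3.89 prior degrees of freedom. No replicate cultures stand behind the test.

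**Figure D1:**
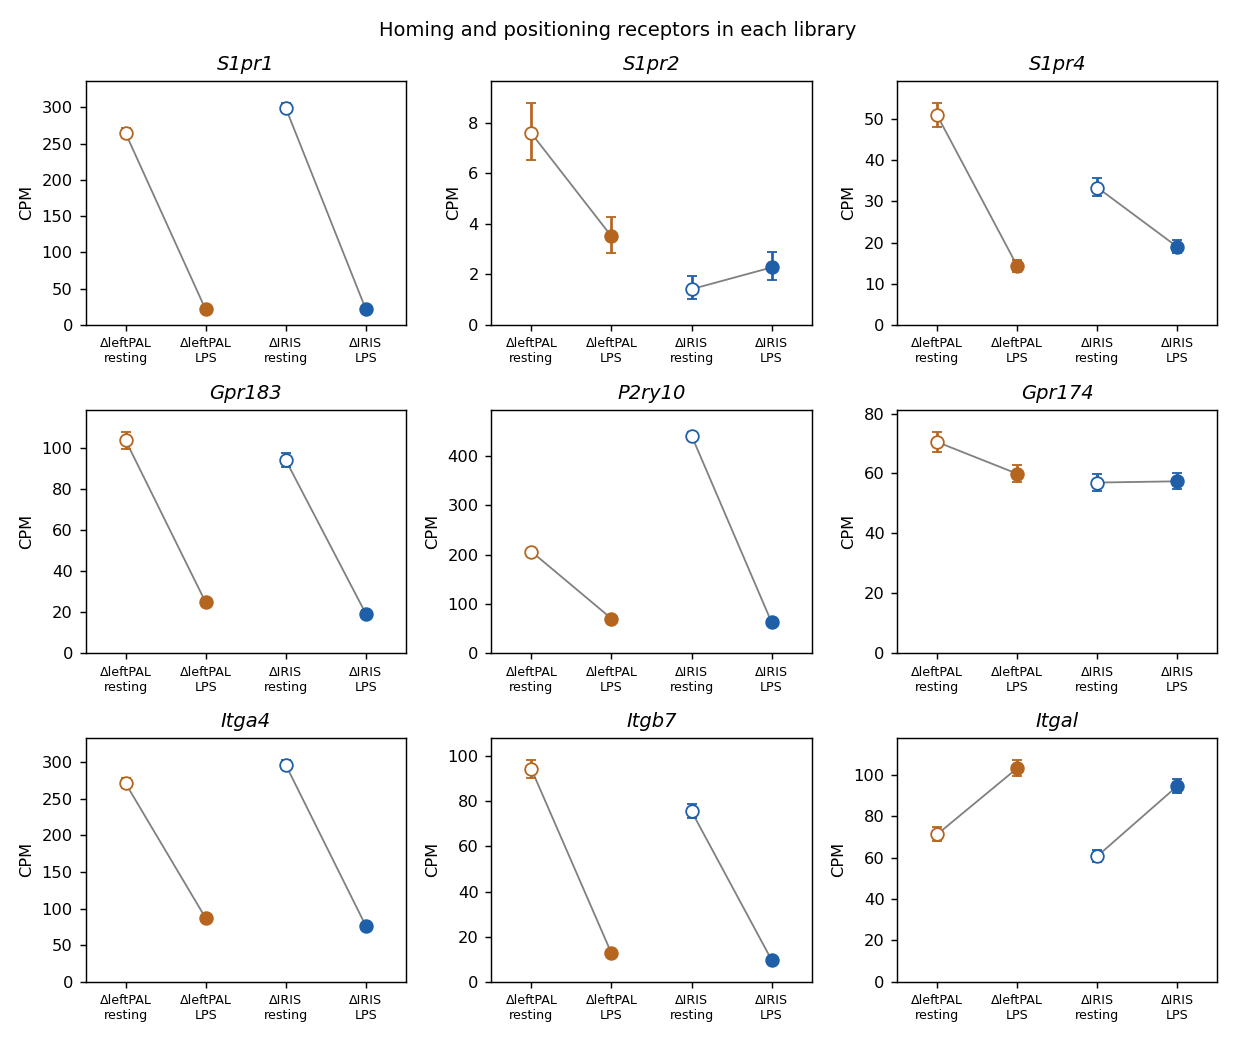
Level of each homing and positioning receptor (CPM, each panel with its own linear axis from 0) in the 4 libraries, open points for resting and filled points for LPS-activated cells, with 95% intervals of counting error and a line joining the libraries of a genotype. S1pr1 goes from 265 and 299 CPM at rest to 21.2 and 21.5 CPM after LPS, while Gpr174 stays between 57.0 and 70.5 CPM in all libraries.

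S1pr1 (ENSMUSG00000045092, chromosome 3 from 115710433 to 115715055, minus strand of mm10) was among the most abundant of these receptors at rest. It had 6305 counts in resting ΔleftPAL and 8485 in resting ΔIRIS cells, or 265 and 299 CPM. After LPS 579 and 653 counts were left, or 21.2 and 21.5 CPM. Both LPS-activated libraries thus lay far below both resting ones. The log2 ratio of LPS over resting was -3.64 in ΔleftPAL (95% Clopper-Pearson interval -3.77 to -3.52) and -3.80 in ΔIRIS (-3.92 to -3.68). The fitted log2 fold change was -3.72 ± 0.14 (SE; edgeR adjusted p = 0.000416). Only 4.65% of all tested genes had a lower value. All intervals given here cover counting error alone and treat reads as independent, which copies made by PCR are not.

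S1pr4 (ENSMUSG00000044199, chromosome 10 from 81497745 to 81500132, minus strand) encodes a receptor for S1P that is largely confined to haematopoietic cells. Its counts were 1214 and 946 at rest and 391 and 574 after LPS in ΔleftPAL and ΔIRIS cells, or 50.9 and 33.4 CPM against 14.3 and 18.9 CPM. The groups did not overlap, and the log2 fold change was -1.32 ± 0.27 (SE; edgeR adjusted p = 0.0111), a 2.50-fold fall. The size of the fall differed between the genotypes. It was -1.83 on the log2 scale in ΔleftPAL (interval -2.00 to -1.67) and -0.82 in ΔIRIS (-0.97 to -0.67), a difference of 1.01 that has no test.

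S1pr2 (ENSMUSG00000043895, chromosome 9 from 20965952 to 20976793, minus strand) was the least abundant member. Resting ΔleftPAL cells had 181 counts (7.59 CPM) and resting ΔIRIS cells 40 (1.41 CPM), while LPS-activated cells had 96 (3.51 CPM) and 69 (2.27 CPM). The LPS-activated values lay between the resting ones, so that the log2 ratio was -1.11 in ΔleftPAL (interval -1.49 to -0.75) and 0.69 in ΔIRIS (0.11 to 1.29). Over both genotypes the log2 fold change was -0.29 ± 0.49 (SE; edgeR adjusted p = 0.637).

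The S1P receptors, S1pr3 and S1pr5 included, were also compared as parts of their summed TPM, a unit that allows for transcript length. S1pr1 made up 71.7% of this sum in resting ΔleftPAL and 83.5% in resting ΔIRIS cells, but 41.7% and 38.7% after LPS. S1pr4 made up 18.3% and 12.3% at rest and 37.9% and 46.9% after LPS. In resting cells S1pr1 was thus the main S1P receptor transcript, whereas in LPS-activated cells S1pr4 came close to it in ΔleftPAL and exceeded it in ΔIRIS.

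Among 11 further genes of S1P supply and sensing, 9 could be tested, of which 6 fell, 1 rose and 2 did not pass, with a median log2 fold change of -1.71. Sphk1, a kinase that makes S1P, fell by 4.12 on the log2 scale (edgeR adjusted p = 0.00653), from 17 and 36 counts to 2 and 1, but its log2 fold change was -1.57 with kallisto estimated counts and -0.97 with TPM, both still called. In ΔleftPAL and ΔIRIS cells the log2 ratio of Sphk1 was -3.29 and -5.27. The S1P exporters Mfsd2b and Spns2 fell by 3.68 and by 2.20 (edgeR adjusted p = 0.000968 and 0.00113), and Ppap2b, a lipid phosphate phosphatase, fell by 3.14 (adjusted p = 0.000761). With TPM the values of Mfsd2b and Ppap2b were -2.29 and -2.53, both still called. Its paralogue Ppap2a was the 1 gene that rose, by 1.90 ± 0.29 (SE; edgeR adjusted p = 0.00475), and was chosen for mention after its value was seen. S1pr3, the S1P receptor outside the member list with the most reads, fell by 1.71 ± 0.23 (SE; edgeR adjusted p = 0.00334), from 954 and 550 counts to 256 and 236.

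Gpr183 (ENSMUSG00000051212, chromosome 14 from 121952331 to 121965193, minus strand) fell 4.51-fold. It had 2470 and 2664 counts at rest in ΔleftPAL and ΔIRIS cells, or 104 and 94.0 CPM, and 679 and 585 counts after LPS, or 24.8 and 19.3 CPM. The log2 fold change was -2.17 ± 0.13 (SE; edgeR adjusted p = 0.00059). It was -2.06 in ΔleftPAL (interval -2.19 to -1.94) and -2.29 in ΔIRIS (-2.42 to -2.16), with overlapping intervals. Of 4 enzymes that make or degrade its oxysterol ligands, the cells contained RNA of 2 at a testable level, and both fell. Cyp27a1, a sterol 27-hydroxylase, went from 443 and 454 counts to 33 and 24 (log2 fold change -4.13 ± 0.24 SE, edgeR adjusted p = 0.000541). Hsd3b7 went from 84 and 82 counts to 35 and 46 (-1.19 ± 0.31 SE, edgeR adjusted p = 0.0254), a call that DESeq2 did not make. Ch25h, which starts the synthesis of the main ligand, had at most 2 counts in any library and Cyp7b1 had 0 in all.

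P2ry10 and Gpr174 lie near each other on the X chromosome, at 107088492 to 107104974 and 107255878 to 107296769 on the plus strand (ENSMUSG00000050921 and ENSMUSG00000073008), yet their levels behaved differently on LPS. P2ry10 had 4918 counts in resting ΔleftPAL and 12516 in resting ΔIRIS cells, or 206 and 442 CPM, and 1926 and 1905 counts after LPS, or 70.4 and 62.8 CPM. The LPS-activated libraries were alike while the resting ones were not. The log2 ratio was hence -1.55 in ΔleftPAL (interval -1.63 to -1.48) and -2.81 in ΔIRIS (-2.88 to -2.74), and -2.18 ± 0.33 over both (SE; edgeR adjusted p = 0.00443), a 4.54-fold fall. Gpr174 had 1680 and 1614 counts at rest and 1639 and 1741 after LPS, or 70.5 and 57.0 CPM against 59.9 and 57.4 CPM. Its groups overlapped, and the log2 fold change of -0.11 ± 0.13 did not pass the test (edgeR adjusted p = 0.489).

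Between these genes lies P2ry10b, listed in the count table as A630033H20Rik, at 107148927 to 107173661 on the same strand. It had 721 and 634 counts at rest and 209 and 228 after LPS, a log2 fold change of -1.78 ± 0.18 (SE; edgeR adjusted p = 0.00147). Of the 2979 31-mers of P2ry10 transcripts, 172 (5.77%) also occur in P2ry10b, so a small part of the reads of this pair could be assigned to either gene. In the resting libraries P2ry10b was lower in ΔIRIS than in ΔleftPAL, at 22.4 and 30.3 CPM, whereas P2ry10 was higher. Of all 5 further genes of this pathway tested, 4 fell and 1 did not pass, with a median of -1.12. The receptor Gpr34 fell by 2.48 ± 0.68 (SE; edgeR adjusted p = 0.0295), from 172 and 207 counts to 79 and 13. The log2 ratio of Gpr34 was -1.32 in ΔleftPAL and -4.09 in ΔIRIS cells, and its call was lost without the genotype block and with TPM. The lysophosphatidylserine lipase Abhd12 and the phosphatidylserine lipase Abhd16a fell 1.65-fold and 2.17-fold (edgeR adjusted p = 0.0165 and 0.00264).

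The integrin chains moved in both directions. Itga4 (ENSMUSG00000027009, chromosome 2 from 79255426 to 79333123, plus strand) had 6465 and 8404 counts at rest in ΔleftPAL and ΔIRIS cells, or 271 and 297 CPM, and 2382 and 2321 after LPS, or 87.0 and 76.5 CPM. Its log2 fold change was -1.80 ± 0.14 (SE; edgeR adjusted p = 0.000874). Itgb7 (ENSMUSG00000001281, chromosome 15 from 102215995 to 102231935, minus strand) had 2247 and 2142 counts at rest, or 94.3 and 75.6 CPM, and 346 and 293 after LPS, or 12.6 and 9.66 CPM. The partner β7 fell by 2.93 ± 0.13 (SE; edgeR adjusted p = 0.000416), or 7.64-fold against 3.48-fold for α4, a difference between the chains that was not tested. In ΔleftPAL and ΔIRIS cells the log2 ratios were -1.64 and -1.95 for Itga4 and -2.90 and -2.97 for Itgb7, with counting intervals that overlapped for Itgb7 but not for Itga4. Of the 31-mers of Itga4 transcripts 8.85% also occur in other genes, most of them in the neighbouring Cerkl when both strands are read.

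Itgal (ENSMUSG00000030830, chromosome 7 from 127296260 to 127335137, plus strand) rose. It had 1697 and 1719 counts at rest, or 71.2 and 60.7 CPM, and 2824 and 2870 after LPS, or 103 and 94.6 CPM. Both LPS-activated libraries exceeded both resting ones, and the log2 fold change was 0.59 ± 0.12 (SE; edgeR adjusted p = 0.0119). It was 0.54 in ΔleftPAL (interval 0.45 to 0.62) and 0.64 in ΔIRIS (0.55 to 0.73). The call was lost with TPM in place of counts, where the log2 fold change was 0.38 (limma adjusted p = 0.0744).

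**Figure D2:**
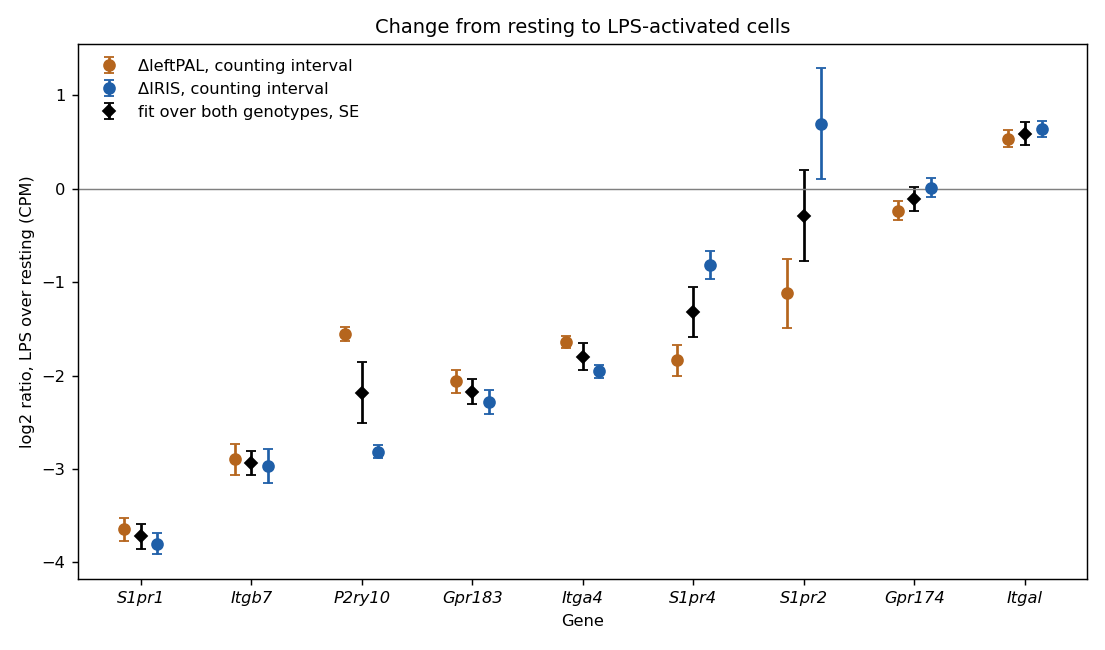
Log2 ratio of LPS over resting for each receptor gene in ΔleftPAL and ΔIRIS cells, with 95% counting intervals, and the value fitted over both genotypes with its standard error. S1pr1 and Itgb7 fall most in both genotypes, Itgal is above 0 in both, and S1pr2 lies on opposite sides of 0.

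The ratios between partner chains changed as well. Itgb1, the β1 partner of α4, rose by 1.71 ± 0.12 on the log2 scale (SE; edgeR adjusted p = 0.00074), from 1631 and 2379 counts at rest to 6254 and 8127 after LPS. The TPM ratio of Itgb1 to Itgb7 was 0.531 in resting ΔleftPAL and 0.752 in resting ΔIRIS cells, and 13.0 and 17.9 after LPS. At the RNA level β7 therefore exceeded β1 at rest and β1 exceeded β7 after LPS in both genotypes. Itgb2, the partner of αL, fell by 0.85 ± 0.12 (SE; edgeR adjusted p = 0.00384), from 2813 and 2932 counts to 1845 and 1685. The TPM ratio of Itgal to Itgb2 went from 0.326 and 0.295 at rest to 0.710 and 0.782 after LPS. The TPM ratio of Itga4 to Itgal went from 3.61 and 4.47 to 0.804 and 0.655, so α4 transcript was the more abundant at rest and αL the more abundant after LPS.

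**Figure D3:**
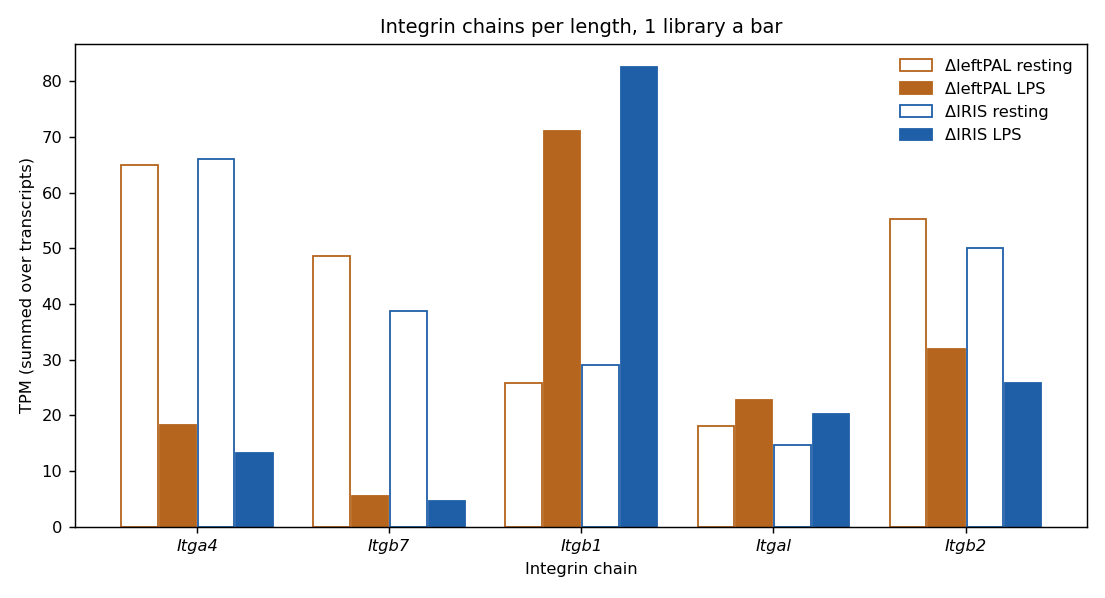
TPM of integrin chains, 1 bar per library on a linear axis, open for resting and filled for LPS-activated cells. Itgb1 rises from 25.8 and 29.1 to 71.1 and 82.6 TPM while Itgb7 goes from 48.6 and 38.7 to 5.47 and 4.62 TPM, and Itgal overtakes Itga4 after LPS.

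Of 10 partner chains and other leukocyte integrins, 7 fell, 1 rose and 2 did not pass, with a median of -1.22. Itgad had 1398 and 2084 counts at rest but 1 and 0 after LPS, and Itgax, the αX chain found on myeloid cells and some B cells, went from 760 and 1663 counts to 20 and 16. The summed level of the 8 myeloid markers fell with them, as given above, and its part was not tested. Itga6, a laminin-binding chain, fell by 2.02 ± 0.17 (SE; edgeR adjusted p = 0.000999), and Itgae by 2.56 from 22 and 39 counts (edgeR adjusted p = 0.00874). The Itgae call was lost with DESeq2, with kallisto estimated counts (-0.58) and with TPM (-0.51). The rise of Itgb1 was the 1 rise of this list.

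Integrin ligands were lower after LPS in 2 of 4 tested genes. Vcam1, the ligand of α4β1, had 4752 and 7667 counts at rest and 4 and 1 after LPS. The myeloid and erythroid marker sums moved with it, as given above, and their part was not tested. Icam2 fell by 1.32 ± 0.17 (SE; edgeR adjusted p = 0.00304), whereas Icam1 had 1369 and 1421 counts at rest and 1655 and 1236 after LPS and did not pass (-0.11 ± 0.14 SE, edgeR adjusted p = 0.532). Of 13 genes of integrin activation, 10 fell, 1 rose and 2 did not pass, with a median of -0.85. The adaptors Fyb and Skap1 fell by 5.72 and 2.80 (edgeR adjusted p = 0.000416 and 0.0086), Rasgrp2, the exchange factor for Rap1, fell by 1.67 (adjusted p = 0.00175) and Cytip, which binds the cytohesin that activates LFA-1, fell by 1.64 (adjusted p = 0.00839). DESeq2 did not call Skap1, whose log2 fold change was -1.56 with kallisto estimated counts and -1.40 with TPM, Fyb was at -5.05 with TPM, and Cytip stood at -1.05 in ΔleftPAL and -2.24 in ΔIRIS cells. The GTPase gene Rap1a, chosen after its value was seen, rose by 0.84 (edgeR adjusted p = 0.00398).

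G protein subunits and the RGS proteins that switch them off form the shared machinery downstream of the lipid receptors. Of 17 such genes 10 fell, 1 rose and 6 did not pass, with a median of -0.51. Rgs1 had the greatest change of the list, with 5600 and 13443 counts at rest and 131 and 105 after LPS (-6.35 ± 0.42 SE, edgeR adjusted p = 0.000663), and a log2 ratio of -5.62 in ΔleftPAL and -7.10 in ΔIRIS cells. Rgs2 fell by 4.75 (edgeR adjusted p = 0.000422) and Rgs13 by 2.32 (adjusted p = 0.0188), whereas Rgs16 rose by 2.16 from 8 and 12 counts to 60 and 41 (adjusted p = 0.0121). The Rgs13 call was lost with TPM, and its log2 ratio was -3.42 in ΔleftPAL and -1.35 in ΔIRIS cells. The Rgs16 call was lost with DESeq2, and its value was 0.87 with TPM.

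All 6 regulators of trafficking receptors fell, with a median of -1.89. Klf2, a transcriptional activator of S1pr1 in lymphocytes, had 4384 and 4689 counts at rest and 339 and 616 after LPS (-3.45 ± 0.25 SE, edgeR adjusted p = 0.000772). Cd69, whose product removes S1PR1 from the surface, had 3535 and 6131 counts at rest and 1241 and 971 after LPS (-2.23 ± 0.28 SE, edgeR adjusted p = 0.00266). Klf3 and Foxo1 fell by 2.04 and 1.74 (edgeR adjusted p = 0.00129 and 0.00434). The transcripts of the receptor, of its activator and of the protein that removes it were thus all lower after LPS.

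Among 14 other homing receptors 8 fell, 3 rose and 3 did not pass, with a median of -0.93. Ccr10, a chemokine receptor of antibody-secreting cells, rose (edgeR adjusted p = 0.0163), from 3 and 0 counts at rest to 29 and 14 after LPS, a log2 ratio of 3.07 in ΔleftPAL cells (counting interval 1.38 to 5.43), although DESeq2 did not call it. Gpr55, a lysolipid receptor, rose by 2.23 (edgeR adjusted p = 0.000884), from 110 and 118 counts to 568 and 617. Cd44, the receptor of hyaluronan, rose by 0.50 (edgeR adjusted p = 0.0408), a call lost without the genotype block, with TPM and with a minimum mean of 50 counts. Gpr55 and Cd44 were named after their values were seen. The chemokine receptors Ccr7 and Cxcr4 fell by 3.23 and 2.76 (edgeR adjusted p = 0.00707 and 0.00453) and the cannabinoid receptor Cnr2, which helps to retain B cells in the marginal zone, by 2.61 (adjusted p = 0.000607). In ΔleftPAL and ΔIRIS cells the log2 ratios were -2.15 and -4.32 for Ccr7 and -1.96 and -3.57 for Cxcr4. Over the 9 pathway lists together, members left out, 80 genes were tested, of which 55 fell, 7 rose and 18 did not pass, with a median of -1.04. The marginal zone markers, a set of 6 genes of the B cells that Cnr2 and S1P receptors position, summed to 1176 and 791 CPM at rest and 294 and 181 CPM after LPS, and the 4 follicular markers to 945 and 840 CPM against 373 and 362 CPM. Whether these shifts account for any receptor's fall was not tested.

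**Figure D4:**
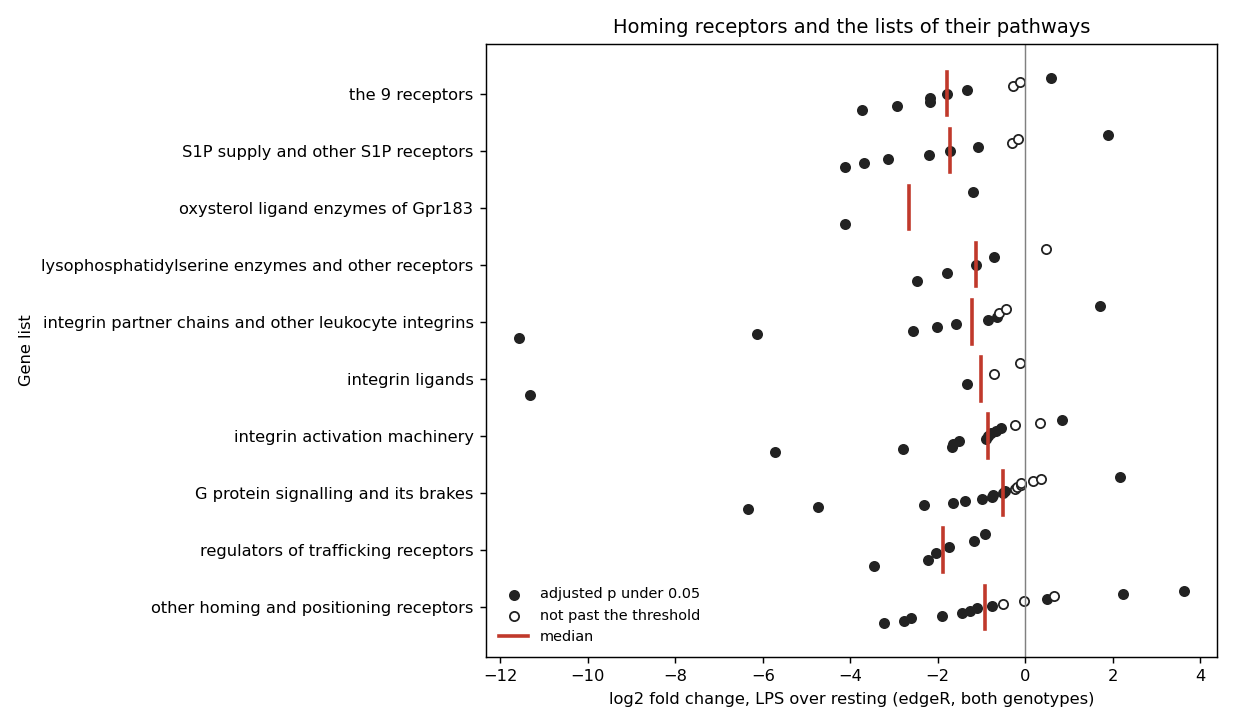
Log2 fold change of LPS over resting (edgeR, both genotypes) for each tested gene of the receptors and of the 9 pathway lists, a point per gene, filled where it passed the test and open where it did not, with the median of each list as a vertical bar. Most points lie below 0, the median of the pathway lists being -1.04, and the lowest point, Itgad, rests on 1 and 0 counts after LPS.

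The order of levels, read in TPM, changed with LPS. At rest P2ry10 had 94.3 TPM in ΔleftPAL and 198 TPM in ΔIRIS cells, a span that held that of S1pr1 at 114 and 126 TPM, so that S1pr1 led in ΔleftPAL and P2ry10 in ΔIRIS cells. Itga4 followed at 65.0 and 66.0 TPM, then Gpr183 at 47.0 and 41.7 TPM and Itgb7 at 48.6 and 38.7 TPM, which overlapped each other. S1pr4 (29.1 and 18.7 TPM) overlapped Gpr174 (24.6 and 19.1 TPM), and Itgal and S1pr2 came last. After LPS P2ry10 led in both genotypes, at 28.4 and 24.8 TPM, now followed by Itgal at 22.7 and 20.2 TPM, Gpr174 at 19.7 and 18.4 TPM and Itga4 at 18.3 and 13.2 TPM. Gpr183, S1pr4 and S1pr1 lay between 7.39 and 10.3 TPM and could not be ordered, and Itgb7 (5.47 and 4.62 TPM) and S1pr2 (1.45 and 0.930 TPM) were lowest. S1pr1 thus moved from the top group to this unordered group above Itgb7, and Itgal from the second lowest place to the second highest. The annotation holds only 1 transcript model for each of S1pr1, S1pr2, S1pr4 and Gpr183, so isoform use cannot be read for them. For P2ry10 the transcript ENSMUST00000053375 held 84.4% to 89.4% of the estimated counts in each library.

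Between the genotypes, resting cells differed most in P2ry10 and S1pr2. P2ry10 was 2.14-fold higher in resting ΔIRIS than in resting ΔleftPAL cells (log2 ratio 1.10, 95% counting interval 1.05 to 1.15), and S1pr2 was 5.38-fold lower (-2.43, interval -2.96 to -1.93). Among all tested genes, 3.38% were at least 2-fold apart at rest, 2.14% being higher in ΔIRIS cells and 1.23% lower. S1pr4 came next at -0.61 (interval -0.73 to -0.49), and the other 6 lay between -0.32 for Itgb7 and 0.18 for S1pr1. For 0 of the 9 genes did the interval hold a ratio of 1, but these intervals leave out the spread between animals and cultures, which is not known.

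**Figure D5:**
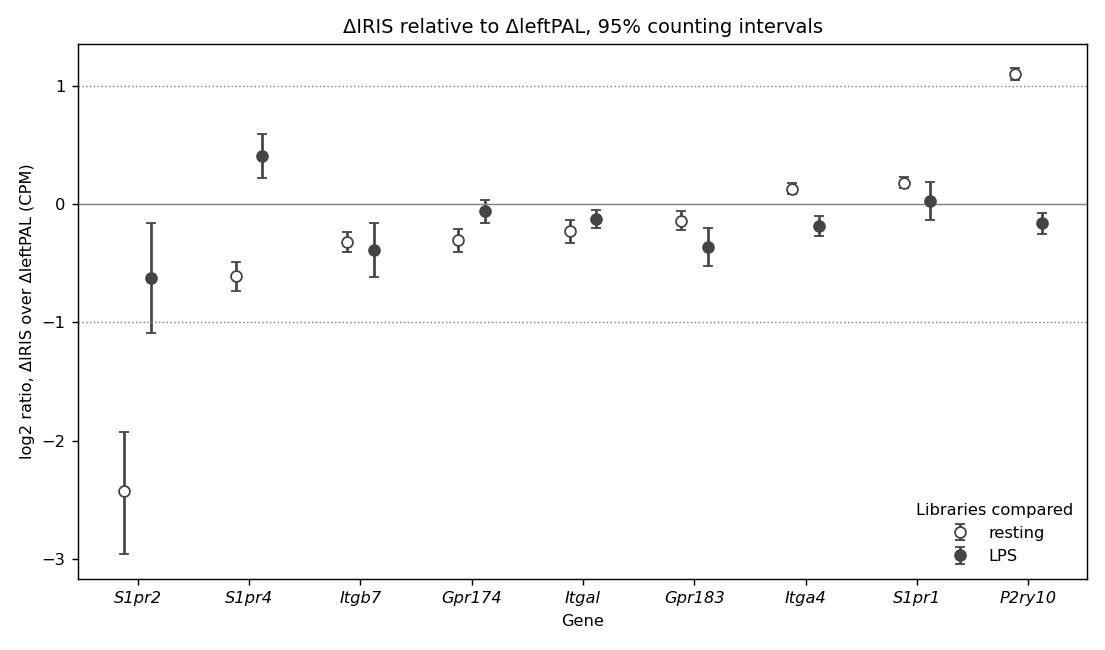
Log2 ratio of ΔIRIS over ΔleftPAL for each receptor gene in resting and in LPS-activated cells, with 95% counting intervals. P2ry10 (1.10) and S1pr2 (-2.43) lie beyond a 2-fold difference at rest, and none does after LPS.

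The low S1pr2 level of resting ΔIRIS cells came with lower germinal centre markers. The other 6 genes of that list summed to 83.1 CPM in resting ΔleftPAL and 49.1 CPM in resting ΔIRIS cells, and 0 of the 6 was higher in ΔIRIS. Mybl1, 1 of the 6, had 338 and 73 counts. After LPS the same 6 genes summed to 90.8 and 115 CPM, with Mybl1 at 601 and 810 counts. The part of germinal centre cells in the S1pr2 difference was not tested. Resting ΔIRIS cells with their higher P2ry10 also had a higher myeloid marker sum (487 against 370 CPM, 5 of 8 genes higher) and a T cell marker sum of 31.5 against 30.2 CPM, in which 2 of 9 genes were higher. The 6 plasmablast genes summed to 921 CPM in resting ΔIRIS and 641 CPM in resting ΔleftPAL cells (4 of 6 higher in ΔIRIS), and to 1236 and 1787 CPM after LPS. The resting sum was set by Irf4 (620 against 292 CPM), while Igj (159 against 193 CPM) and Mzb1 (50.6 against 75.4 CPM) were lower in ΔIRIS. The 6 marginal zone genes were lower in resting ΔIRIS cells, at 791 against 1176 CPM, with 1 of 6 higher. Of the 7 erythroid and platelet genes 4 were higher in resting ΔIRIS cells, among them the platelet genes Ppbp (14.4 against 4.32 CPM), Pf4 (3.64 against 1.22 CPM) and Itga2b (13.0 against 5.62 CPM), although the list's sum was lower (24458 against 35039 CPM). The part of such cells in the P2ry10 difference was not tested.

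Of the 80 tested genes of the pathway lists, 6 were at least 2-fold apart at rest, beside the 3.38% given above for all genes. In ΔIRIS 4 were higher, namely Ccr7 at 555 against 153 CPM, Cxcr4 at 487 against 175 CPM, Rgs1 at 474 against 235 CPM and Cytip at 630 against 313 CPM. S1pr3 at 19.4 against 40.0 CPM and Rgs13 at 4.02 against 8.60 CPM were lower. All 6 were lower after LPS in both genotypes, and 0 of them were 2-fold apart there on CPM plus 0.5. After LPS the 2-fold differences of the lists were in Gpr34, at 0.428 against 2.89 CPM, and in Itgam, at 14.8 against 5.12 CPM, which were named after their values were seen.

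After LPS, 0 of the 9 receptors were 2-fold apart between the genotypes, as 2.09% of all tested genes were (1.54% lower and 0.555% higher in ΔIRIS). P2ry10 stood at -0.16 (interval -0.26 to -0.07) and S1pr2 at -0.63 (-1.09 to -0.16). S1pr4 was the 1 receptor whose interval lay above 0, at 0.41 (interval 0.22 to 0.59), in contrast to its negative ratio at rest. S1pr2, Gpr183, Itgb7 and Itgal were lower in ΔIRIS under both conditions with intervals below 0. After LPS Gpr183, Itgb7 and Itgal stood at -0.36, -0.39 and -0.13, and at rest at -0.14, -0.32 and -0.23. For S1pr1 (0.02, interval -0.14 to 0.19) and Gpr174 (-0.06, interval -0.16 to 0.04) no difference was detectable at this depth.

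Genes whose levels across the 4 libraries were most like those of 3 members were sought among the 11285 other genes that averaged 50 or more counts, by the root mean square difference of log2(CPM + 0.5) after centring. For S1pr1 these were Hes1 (0.0166), Kdm6b (0.0331) and Fgd4 (0.0357). Fgd4 had 0 and 1 counts after LPS, so its likeness rests on the 0.5 CPM added. For Gpr183 those reported are Tec (0.0368) and March2 (0.0544), and for Itgal they were Xrcc5 (0.0121), Cenpv (0.0151) and Rpl19 (0.0159). Hes1, for example, had 33.8 and 39.0 CPM at rest and 2.30 and 2.31 CPM after LPS. With 4 points per gene and many genes compared, such likeness describes these libraries and carries no test.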

How the data were processed

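Total RNA freed of ribosomal RNA was sequenced as paired reads of 150 nt. Per the labels and methods, the authors mapped reads with STAR 2.4.0a to mm10 and deposited raw counts per gene name from featureCounts of Subread 1.4.6-p1, assigning multimapping reads at their primary alignment. They also deposited estimated counts and TPM per transcript from kallisto 0.42.3, whose index is not given in the sources used here. Estimated counts were rounded for testing, and TPM was summed per gene. Annotation headers of the TPM table are shifted, so transcripts were matched by identifier. The row without a gene name (0.00876% to 0.0264% of counts) was left out.

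Genes averaging 10 or more counts were tested for LPS against resting with edgeR 4.0.16 (R 4.3.3; TMM, quasi-likelihood, genotype as block, 1 residual degree of freedom). A standard error is the log2 fold change divided by the root of F. Adjusted p under 0.05 was called. Genotypes were compared by log2 ratios with 95% Clopper-Pearson intervals (Python 3.11.15, scipy 1.17.1), and genes at least 2-fold apart were counted on CPM plus 0.5. On simulated data of 13706 genes for the LPS comparison, 187 of 200 genes changed 4-fold were recovered and 10 of 13506 unchanged genes called. The simulation set no genotype difference and changed far fewer genes than the 59.7% called here. Its rates therefore need not carry over to these calls. Alternatives were other scalings and filters, DESeq2 1.42.0, kallisto values (limma 3.58.1 on log2(TPM + 0.5)), no genotype block and each genotype alone.

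Named were all members, defining partners, and per list up to 4 called genes with the greatest change. The members and lists were chosen with earlier results of these data known. Pooling of animals is described differently in the sources. Whether the libraries came from separate cultures is not stated, so p-values measure only the spread between these libraries, shared in part over all tested genes. The single results of some listed genes are not reported here.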

Additional observations from a re-analysis of the deposited data

Results flagged for a closer look

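S1pr2 had LPS ratios of opposite sign in ΔleftPAL and ΔIRIS cells. It went from 181 to 96 counts in ΔleftPAL and from 40 to 69 in ΔIRIS cells. The log2 ratios of LPS over resting were -1.11 and 0.69, a difference of 1.80 (ΔIRIS minus ΔleftPAL) that was not tested, since each genotype has 1 library per condition. Such opposite signs occurred in 12.1% of the tested genes.

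Gpr174 also had opposite signs, at -0.24 in ΔleftPAL and 0.01 in ΔIRIS cells, a difference of 0.25 that was not tested. The counting interval in ΔIRIS (-0.09 to 0.11) holds 0.

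Among the partner genes, Icam1 stood at 0.07 in ΔleftPAL and -0.30 in ΔIRIS cells, a difference of -0.37, and Itgam at -1.40 and 0.47, a difference of 1.86. Neither difference was tested.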

How the results depend on the processing

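S1pr1, Itgb7, P2ry10, Gpr183 and Itga4 kept their direction and call in all 9 alternatives that used both genotypes, with log2 fold changes of -3.81 to -3.52, -3.00 to -2.74, -2.34 to -1.99, -2.24 to -1.94 and -2.04 to -1.55. With kallisto TPM, 0 of the 9 receptors were called higher by limma (1 at an unadjusted p under 0.05, and 1 by edgeR and by DESeq2), and S1pr4 missed the threshold (-1.41, limma adjusted p = 0.0549, 0.000273 to 0.0549 over the alternatives). With TPM, limma and 12762 genes tested, the median of all genes was -0.24 and 3920 genes were called lower and 2349 higher, against -0.04, 4183 and 4089 with counts, edgeR and 13863 genes. With a prior of 5 CPM in place of 0.5, 0 receptors were 2-fold lower in resting ΔIRIS cells, since S1pr2 is of that size. Gpr174 was 0.069 and Icam1 0.078 with kallisto estimated counts, against -0.11 for each with gene counts. Gpr174, like S1pr2, passed no threshold under any alternative. In each genotype alone, which leaves no test, the values ranged from -1.11 to 0.69 for S1pr2, -0.24 to 0.011 for Gpr174, -0.30 to 0.074 for Icam1, -1.40 to 0.47 for Itgam, -1.83 to -0.82 for S1pr4 and -2.81 to -1.55 for P2ry10. Without the genotype block 8140 genes were called, against 8272. The block pairs the libraries of a genotype. The labels number no replicates. Counting error limits S1pr2 most, which had 40 counts in its lowest library.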
